A study of Mus musculus with 8 samples.

Results

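Runx1, Ncam1, Gadd45a, Hdac4, Hdac9, Dach2 and Mt3 form a set of 7 genes of skeletal muscle whose expression responds to the loss of nerve supply. They were taken by gene symbol from the 16686 genes of the deposited table. All 7 passed the filter on low counts that left 12542 genes for testing. The question was whether the muscle of old knockout mice showed more of a denervation profile than that of old wild-type mice.

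RNA was sequenced from the tibialis anterior (TA), a fast muscle of the lower leg, of 8 male mice on the FVBN background, with 1 library per mouse. WT Old comprised 4 wild-type mice and C2-/- Old comprised 4 mice lacking Mybpc2 in the whole body, the gene of fast myosin-binding protein C, in which a Neo cassette with LoxP sites replaces part of the gene. All were 22 months old by their labels, although a growth note in the labels states a younger age. No mouse had been denervated, and no young mice were among the libraries, so the genes were compared between genotypes at 1 age only.

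When a motor nerve is cut or silenced, muscle fibres switch on a gene programme that is normally held down by electrical activity. The transcription factor myogenin, encoded by Myog, turns on acetylcholine receptor subunits and the ubiquitin ligases of atrophy. Hdac4, a class IIa histone deacetylase, accumulates in denervated muscle and represses Dach2 and Hdac9, which are themselves repressors of Myog. Runx1, a transcription factor that limits wasting, Ncam1, a neural cell adhesion molecule that spreads along the denervated fibre, and Gadd45a, a nuclear protein that promotes atrophy, are known to rise. Mt3 is a metallothionein, a small metal-binding protein.

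Expression is given in CPM, counts scaled to a common library size through TMM-corrected library totals. Each mouse had between 25425993 and 29747692 counts, and 3 counts, taken as the smallest level that can be shown, corresponded to 0.101 to 0.118 CPM, which covers counting error only. Mybpc2 lay between 4964 and 7392 CPM in WT Old, matching the labels. In C2-/- Old it was far lower, also matching the labels, at 38.35 CPM in replicate 3 and between 3.85 and 4.35 CPM in the others. The 8 markers of fast fibres summed to between 152900 and 202600 CPM per mouse. WT Old replicate 2 stood apart from the other mice: it was the highest of 8 for 27.5% and the lowest for 24.5% of all tested genes, against 6.57% to 12.64% highest in the other libraries. Its values are given for each of the 7 genes below. In bulk tissue, fewer cells of a type and less RNA per cell cannot be told apart.

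Promoter sequences from RefSeq (GRCm38.p6) were matched for 6 of the 7 genes, all but Ncam1, each spanning 250 bases before to 50 bases after a transcription start. Windows of Runx1, Hdac9 and Mt3 are shown as examples that held a match to the motifs below, and that of Mt1 for comparison with Mt3. Capitals mark an E-box, the kind of site that myogenin and its relatives bind (CAGCTG or CACCTG on either strand), in Runx1 and Hdac9, and the core of a metal response element (TGCGCNC or TGCACNC on either strand) in Mt3 and Mt1. The windows are Runx1 chr16:92826025-92826324 (minus strand), Hdac9 chr12:34917046-34917345 and chr12:34528840-34529139 (both minus strand), Mt3 chr8:94152357-94152656 and Mt1 chr8:94178839-94179138 (both plus strand).
Runx1: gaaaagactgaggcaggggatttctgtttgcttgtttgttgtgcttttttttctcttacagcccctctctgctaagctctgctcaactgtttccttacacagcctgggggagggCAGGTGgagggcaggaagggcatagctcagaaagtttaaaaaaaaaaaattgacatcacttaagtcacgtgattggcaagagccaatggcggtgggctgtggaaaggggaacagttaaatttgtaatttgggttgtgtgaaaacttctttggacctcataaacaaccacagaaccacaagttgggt
Hdac9, first start: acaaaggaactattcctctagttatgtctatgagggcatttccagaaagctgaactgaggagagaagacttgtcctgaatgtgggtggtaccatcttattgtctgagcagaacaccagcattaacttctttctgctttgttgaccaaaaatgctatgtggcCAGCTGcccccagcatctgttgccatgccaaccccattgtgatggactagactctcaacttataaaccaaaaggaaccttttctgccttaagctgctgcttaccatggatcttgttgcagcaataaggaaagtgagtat
Hdac9, second start: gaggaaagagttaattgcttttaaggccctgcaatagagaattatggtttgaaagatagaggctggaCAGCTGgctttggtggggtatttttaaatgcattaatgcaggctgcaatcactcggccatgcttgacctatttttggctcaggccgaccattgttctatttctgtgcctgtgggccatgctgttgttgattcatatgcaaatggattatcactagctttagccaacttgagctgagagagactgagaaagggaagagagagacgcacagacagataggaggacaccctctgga
Mt3: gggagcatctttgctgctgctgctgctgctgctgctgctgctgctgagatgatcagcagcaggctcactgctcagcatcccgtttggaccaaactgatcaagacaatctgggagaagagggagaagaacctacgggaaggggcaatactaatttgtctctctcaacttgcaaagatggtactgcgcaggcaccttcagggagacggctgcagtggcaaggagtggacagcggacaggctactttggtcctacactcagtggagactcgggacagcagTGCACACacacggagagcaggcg
Mt1: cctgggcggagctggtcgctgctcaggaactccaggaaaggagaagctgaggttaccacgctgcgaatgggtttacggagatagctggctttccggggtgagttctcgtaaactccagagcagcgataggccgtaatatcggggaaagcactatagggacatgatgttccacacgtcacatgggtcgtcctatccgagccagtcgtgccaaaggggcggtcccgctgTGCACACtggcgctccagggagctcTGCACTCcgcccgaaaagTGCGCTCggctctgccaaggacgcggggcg
Of 32851 promoters in the same table, 16.3% held CAGCTG, 20.2% held CACCTG and 25.7% held the metal response core, so each match is common and describes letters only. Both Hdac9 starts held 1 CAGCTG, the Runx1 window shown held 1 CACCTG, Mt3 held 1 metal response core and Mt1 held 3. The metal response core also stood 3 times and 1 time in the 2 windows of Dach2, and the windows of Gadd45a and Hdac4 and the second window of Runx1 held no match to any of these motifs.

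No difference between the genotypes was detected for any of the 7 genes. The count of genes called at an adjusted p under 0.05 (edgeR's quasi-likelihood test, Benjamini-Hochberg over all tested genes) was 0 of 7, where 0.0319% of all tested genes were called. At an unadjusted p under 0.05 it was also 0 of 7, where 5.29% of all tested genes passed, and DESeq2 and limma-voom called 0 as well. The CPM of the genotypes overlapped for all 7, whereas they did not overlap for 3.38% of all tested genes. The median log2 fold change of the 7 was 0.04, beside −0.02 over all tested genes, with 4 fitted values above 0 and 3 below.

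**Figure D1:**
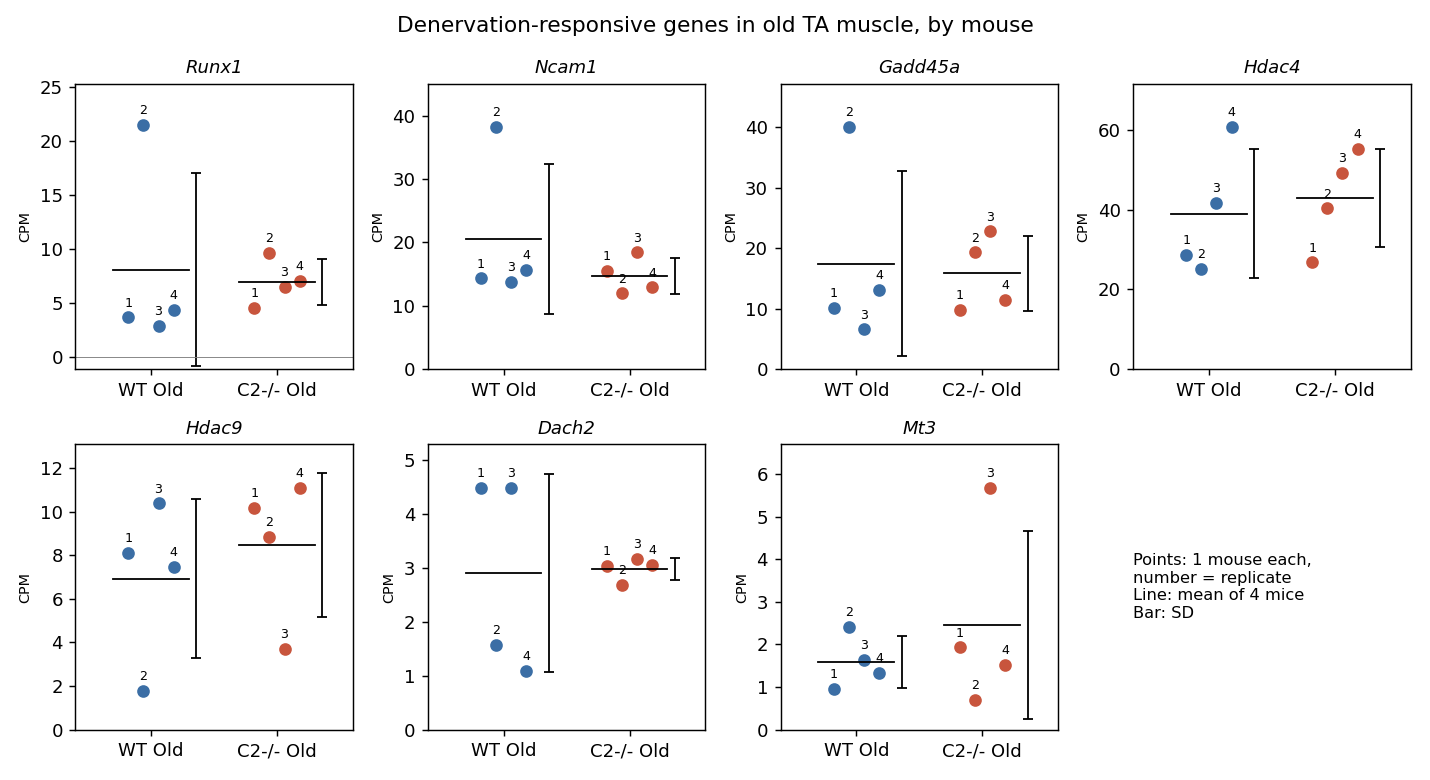
CPM of each gene in each mouse, WT Old in blue and C2-/- Old in red, with the replicate number above each point, the mean of 4 mice as a line and the SD as a bar. WT Old replicate 2 is the highest point for Runx1 (21.45 CPM), Ncam1 (38.23 CPM) and Gadd45a (40.05 CPM) and the lowest for Hdac4 and Hdac9, and the genotypes overlap in every panel.

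Runx1 (gene ID 12394) lies on chromosome 16 from 92601466 to 92826074 (GRCm38, minus strand). Its expression was 3.66, 21.45, 2.88 and 4.34 CPM in WT Old replicates 1 to 4, and 4.54, 9.63, 6.49 and 7.07 CPM in C2-/- Old replicates 1 to 4. WT Old replicate 2 was 4.72-fold above the median of the other 7 mice, and every C2-/- Old mouse was above the 3 other WT Old mice. The WT Old mean was 8.08 ± 8.93 CPM and the C2-/- Old mean 6.94 ± 2.10 CPM (SD, n = 4 each). This gave a log2 fold change of −0.22 ± 0.58 (SE), with a 95% interval from −1.51 to 1.07 and an adjusted p of 0.989 by edgeR.

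Without WT Old replicate 2 the direction of Runx1 turned. Its log2 fold change was then 0.94 ± 0.25 (SE), or 1.92-fold higher in C2-/- Old, with a 95% interval from 0.37 to 1.51. The unadjusted p from edgeR was 0.00413, and the adjusted p, 0.471, did not pass the threshold. Of all genes tested without this mouse, 4.05% were higher in C2-/- Old at an unadjusted p under 0.05 and 0.0553% passed after adjustment. Each mouse was left out in turn, and the result without this mouse is described because its values stood apart, so it is not an independent test.

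Ncam1 (gene ID 17967, chromosome 9 from 49502129 to 49799427, minus strand) followed the same mouse. It stood at 14.31, 38.23, 13.82 and 15.67 CPM in WT Old and at 15.52, 11.94, 18.41 and 12.90 CPM in C2-/- Old, in replicate order. The 7 mice other than WT Old replicate 2 lay within 11.94 to 18.41 CPM, with the genotypes interleaved. Fitted over all 8 mice, the log2 fold change was −0.48 ± 0.32 (SE; 95% interval −1.19 to 0.23) with an adjusted p of 0.968 by edgeR. It was 0.02 ± 0.16 (SE; 95% interval −0.33 to 0.36) without that mouse.

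Gadd45a (gene ID 13197, chromosome 6 from 67035096 to 67038001, minus strand) spread more widely within both genotypes. Its expression was 10.10, 40.05, 6.54 and 13.14 CPM in WT Old and 9.77, 19.30, 22.77 and 11.47 CPM in C2-/- Old. Again WT Old replicate 2 was the highest, at 3.49-fold the median of the others, and C2-/- Old replicates 3 and 2 came next. With all mice the log2 fold change was −0.14 ± 0.51 (SE; 95% interval −1.27 to 0.98), with an adjusted p of 0.993 by edgeR. Without that mouse it was 0.68 ± 0.32 (SE; 95% interval −0.03 to 1.38), for which edgeR gave an adjusted p of 0.851 (unadjusted p = 0.0574).

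Hdac4 (gene ID 208727, chromosome 1 from 91928779 to 92198234, minus strand), the deacetylase known to rise after denervation, did not follow that mouse upwards. It stood at 28.61, 25.09, 41.82 and 60.81 CPM in WT Old and at 26.80, 40.39, 49.20 and 55.33 CPM in C2-/- Old. The lowest level of the 8 was in WT Old replicate 2, next to C2-/- Old replicate 1 and WT Old replicate 1, and the highest in WT Old replicate 4. Its log2 fold change was 0.14 ± 0.29 (SE; 95% interval −0.52 to 0.79), with an adjusted p of 0.987 by edgeR, and −0.02 ± 0.27 (SE) without WT Old replicate 2.

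Hdac9 (gene ID 79221, chromosome 12 from 34047580 to 34917095, minus strand) was lowest in the mouse that was highest for Runx1, Ncam1 and Gadd45a. Its expression was 8.10, 1.79, 10.38 and 7.46 CPM in WT Old and 10.18, 8.85, 3.69 and 11.09 CPM in C2-/- Old. With 49 counts, WT Old replicate 2 reached 0.202 of the median of the other mice, and C2-/- Old replicate 3 was the next lowest. The remaining 6 mice lay between 7.46 and 11.09 CPM. The log2 fold change was 0.29 ± 0.46 (SE; 95% interval −0.74 to 1.32), with an adjusted p of 0.983 by edgeR, and it turned to −0.03 ± 0.31 (SE) without WT Old replicate 2. Hdac9 also encodes a short form without the catalytic domain, which counts per gene cannot separate from the full-length form.

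Dach2 (gene ID 93837, chromosome X from 113297510 to 113836386, plus strand) had close mean levels, 2.90 CPM in WT Old and 2.98 CPM in C2-/- Old, and an uneven spread. It stood at 4.47, 1.57, 4.48 and 1.09 CPM in WT Old and at 3.03, 2.68, 3.16 and 3.05 CPM in C2-/- Old. The 4 C2-/- Old mice lay between the WT Old pairs, and the SD was 1.83 CPM in WT Old and 0.208 CPM in C2-/- Old (n = 4 each), a difference in spread that was not tested. The log2 fold change was 0.04 ± 0.41 (SE; 95% interval −0.87 to 0.95), with an adjusted p of 0.998 by edgeR, and it turned to −0.16 ± 0.39 (SE) without WT Old replicate 2.

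Mt3 (gene ID 17751, chromosome 8 from 94152607 to 94154148, plus strand) had the lowest mean CPM of the 7 in both genotypes, from 19 to 160 counts per mouse. Its expression was 0.96, 2.41, 1.64 and 1.34 CPM in WT Old and 1.93, 0.71, 5.68 and 1.53 CPM in C2-/- Old. Here C2-/- Old replicate 3 was the highest, at 2.36 times the level of WT Old replicate 2. Its log2 fold change was 0.63 ± 0.55 (SE; 95% interval −0.60 to 1.86), with an adjusted p of 0.968 by edgeR, and it turned to −0.19 without C2-/- Old replicate 3. Without WT Old replicate 2 it was 0.91 ± 0.59 (SE).

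**Figure D2:**
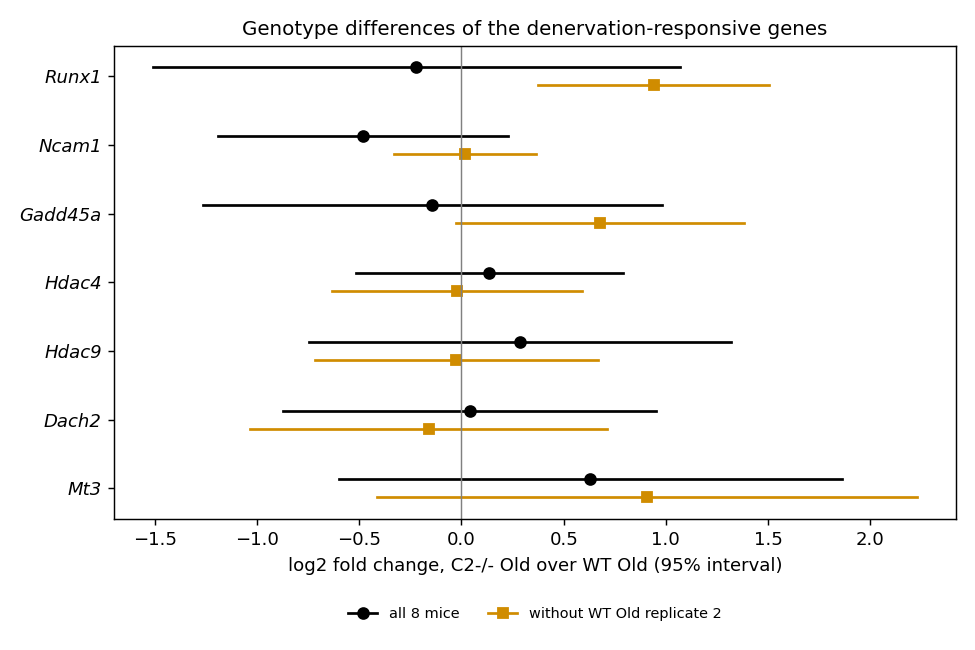
Log2 fold change of each gene, C2-/- Old over WT Old, with its 95% interval, for all 8 mice (black circles) and without WT Old replicate 2 (ochre squares). All 7 intervals from the 8 mice include 0, and without that mouse only the interval of Runx1, from 0.37 to 1.51, lies above 0.

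The intervals in the plot of log2 fold changes bound what these mice can show. A 2-fold change in at least 1 direction lay inside the intervals of Runx1, Ncam1, Gadd45a, Hdac9 and Mt3, so a change of that size was not excluded for these genes. The narrowest interval was that of Hdac4, from 0.699-fold to 1.73-fold. Each replicate is a separate mouse, and the p-values set the difference between genotypes against the variation between mice.

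Per transcript length, in the TPM values deposited by the authors, Gadd45a had the highest median level of the 7, 19.5 TPM over the 8 mice. Hdac4 followed with 9.87 TPM, Mt3 with 6.58 TPM, Ncam1 with 4.99 TPM, Hdac9 with 3.60 TPM and Runx1 with 1.57 TPM, and Dach2 was lowest with 0.935 TPM. The ranges over mice overlapped between all neighbours in this order. Gadd45a spanned 11.1 to 56.4 TPM and Hdac4 5.06 to 13.1 TPM, while Runx1 spanned 0.82 to 5.57 TPM and Dach2 0.39 to 1.36 TPM.

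Across the 8 mice, 3 of the 21 pairs of genes passed after adjustment over the pairs by Pearson's r of log2 CPM (two-sided exact permutation test), and 0 passed by Spearman's rho. WT Old replicate 2 was the highest or the lowest mouse for each gene of these 3 pairs. The share of all gene pairs that would pass was not computed, so this count has no background. Runx1 and Gadd45a varied together, with r = 0.913 (exact permutation p = 0.00208, adjusted p = 0.0323) and rho = 0.786 (exact permutation p = 0.0279, adjusted p = 0.257). Ncam1 and Hdac9 varied oppositely, with r = −0.931 (exact permutation p = 0.00461, adjusted p = 0.0323) and rho = −0.81 (exact permutation p = 0.0218, adjusted p = 0.257). For Gadd45a and Hdac9, r was −0.877 (exact permutation p = 0.00412, adjusted p = 0.0323) and rho −0.762 (exact permutation p = 0.0368, adjusted p = 0.257). Without the 2 mice farthest from the median of the first gene, r was 0.675, −0.886 and −0.722 in the same order, and without WT Old replicate 2 alone it was 0.803, −0.763 and −0.712. The sign of each relation thus held without that mouse, on fewer points that were not tested again. By contrast, r of Runx1 with Ncam1 went from 0.687 to −0.26 without it, so that relation rested on this mouse.

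**Figure D3:**
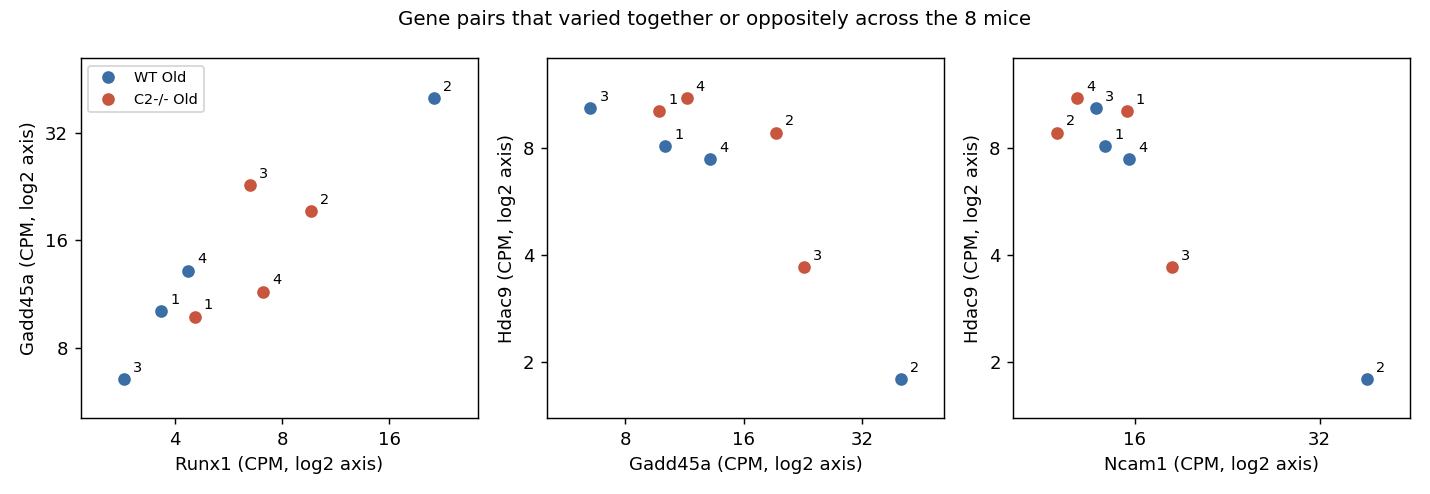
CPM of the 3 pairs of genes that passed by Pearson's r, on log2 axes, with 1 point per mouse (WT Old in blue, C2-/- Old in red, replicate number beside it). WT Old replicate 2 sits at one end of each panel, and C2-/- Old replicate 3 is the next along for Hdac9 against Gadd45a and against Ncam1.

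For each gene, up to 2 tested genes with the most similar log2 CPM over the 8 mice are named as a description, since the best of all tested genes are high by selection and share the library that stands apart. They were Cspp1 (r = 0.98) and Rrad (r = 0.967) for Runx1, Arhgap10 (0.988) and Eif3d (0.981) for Ncam1, and Lgmn (0.964) and Nop56 (0.958) for Gadd45a. For Hdac4 they were Ascc2 (r = 0.988) and Fam120c (0.972), and Ltbp4 (0.986) is named for Hdac9. Dach2 was most like Ak4 (r = 0.963) and Pde8a (0.947), and Mt3 most like Ccr2 (0.944) and Slc38a4 (0.941). Rrad, itself in the list of denervation-induced genes described next, stood at 18.89 CPM in WT Old replicate 2 and between 1.31 and 4.83 CPM in the others.

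The wider programme was followed in 21 other genes known to be induced by denervation, of which 19 passed the filter. After adjustment 0 of 19 were called by edgeR, and fitted values were above 0 for 5 and below for 14, with a median log2 fold change of −0.55. At an unadjusted p under 0.05, 2 of 19 were higher in C2-/- Old, where 3.38% of all tested genes were, and 3 of 19 were lower, where 1.91% of all tested genes were. The higher genes were Myh3 (log2 fold change 1.14 ± 0.49, SE) and Myh8 (0.91 ± 0.39), the embryonic and perinatal myosin heavy chains. Without C2-/- Old replicate 3, where Myh3 stood at 8.76 CPM against at most 3.08 CPM in the other mice, these were 0.41 for Myh3 and 0.58 for Myh8, and neither had an unadjusted p under 0.05. The lower genes were Chrnd (−0.84 ± 0.28), a subunit of the acetylcholine receptor, Fbxo32 (−1.13 ± 0.42), a ubiquitin ligase of atrophy, and Cdkn1a (−2.02 ± 0.84), an inhibitor of the cell cycle. Without WT Old replicate 2, Fbxo32 (−0.53 ± 0.28) and Cdkn1a (0.01 ± 0.23) no longer had an unadjusted p under 0.05.

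Of the 8 mice, WT Old replicate 2 was the highest for 14 of these 19 genes, where it was the highest for 27.5% of all tested genes. Myog stood at 16.67 CPM in this mouse and between 2.68 and 6.31 CPM in the other 7. Chrng, the fetal receptor subunit, stood at 2.12 CPM against 0.231 to 0.922 CPM, and Chrna1, the alpha subunit, at 60.26 CPM against 15.36 to 26.31 CPM. The atrophy ligases were high in the same mouse, Fbxo32 at 971.5 CPM against 200.3 to 530.0 CPM and Trim63 at 682.3 CPM against 82.1 to 178.9 CPM, and Cdkn1a reached 404.7 CPM against 22.6 to 43.1 CPM. Musk, the receptor kinase of the neuromuscular junction, did not follow: it stood at 19.73 CPM there and at 8.56 to 25.72 CPM in the others.

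**Figure D4:**
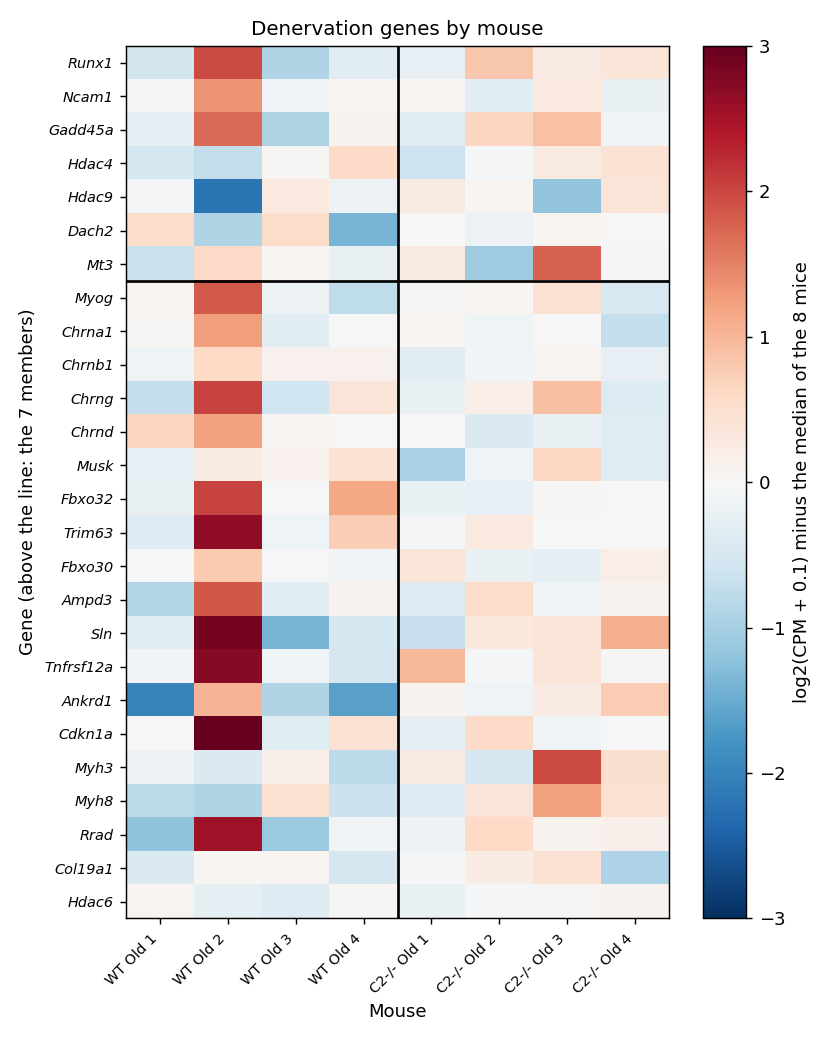
Log2(CPM + 0.1) of the 7 genes (above the line) and the 19 other denervation-induced genes that passed the filter, each minus its median over the 8 mice, with red above and blue below the median. The column of WT Old replicate 2 is red for Runx1, Ncam1 and Gadd45a and the highest in its row for 14 of the 19 other genes, and blue for Hdac9.

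Without that mouse, the median log2 fold change of the 19 genes went from −0.55 to 0.28, with 13 fitted values above 0 and 6 below, and still 0 were called after adjustment by edgeR. At an unadjusted p under 0.05, 4 of 19 were higher in C2-/- Old (Ankrd1, Rrad, Sln and Tnfrsf12a, named after their values were seen), where 4.05% of all genes tested were. Of the 19, 1 was lower (Chrnd), where 1.84% of all genes tested were. Ankrd1, a stretch-responsive ankyrin-repeat gene, had the smallest p of these, with a log2 fold change of 1.75 ± 0.28 (SE) and an adjusted p of 0.129 by edgeR. With all 8 mice, 1 of the 19 genes (Chrnd) had CPM ranges that were separate between the genotypes, where 3.38% of all tested genes had. It stood at 6.09, 9.08, 4.03 and 3.87 CPM in WT Old and at 3.82, 2.83, 3.30 and 2.98 CPM in C2-/- Old, and was still lower without that mouse (log2 fold change −0.52 ± 0.21, SE).

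Of the genes known to fall after denervation, which include Ppargc1a and fast-fibre energy genes, 0 of 6 passed at an unadjusted p under 0.05 by edgeR, where 5.29% of all tested genes passed. Their median log2 fold change was 0.02, and 4 of the 6 were lowest in WT Old replicate 2, where 24.5% of all tested genes were. Of the 9 tested relatives of the 7 genes (such as Runx2, Gadd45b, Hdac5 and Dach1), 0 passed at an unadjusted p under 0.05. In WT Old replicate 2, 3 of these relatives were highest, where 27.5% of all tested genes were. Likewise 0 of 12 partners of the class IIa deacetylases and 0 of 8 stress genes linked to Gadd45a passed. In WT Old replicate 2, 8 of the partners were lowest (24.5% of all tested genes) and 4 of the stress genes highest (27.5% of all tested genes).

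Mt3 peaked in another mouse than its relatives Mt1 and Mt2, the metallothioneins made in most tissues. Mt1 stood at 15.89, 231.1, 18.41 and 56.50 CPM in WT Old and at 16.88, 37.01, 38.17 and 7.56 CPM in C2-/- Old. Mt2 stood at 5.17, 216.2, 9.0 and 29.21 CPM in WT Old and at 8.63, 21.53, 35.83 and 6.52 CPM in C2-/- Old. Both were thus highest in WT Old replicate 2, whereas Mt3 was highest in C2-/- Old replicate 3, which was also the highest C2-/- Old mouse for Mt1 and Mt2. The log2 fold change was −1.69 ± 0.82 (SE) for Mt1 and −1.84 ± 1.04 (SE) for Mt2, with an adjusted p of 0.968 by edgeR for both. Without WT Old replicate 2 these were −0.27 for Mt1 and 0.33 for Mt2.

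**Figure D5:**
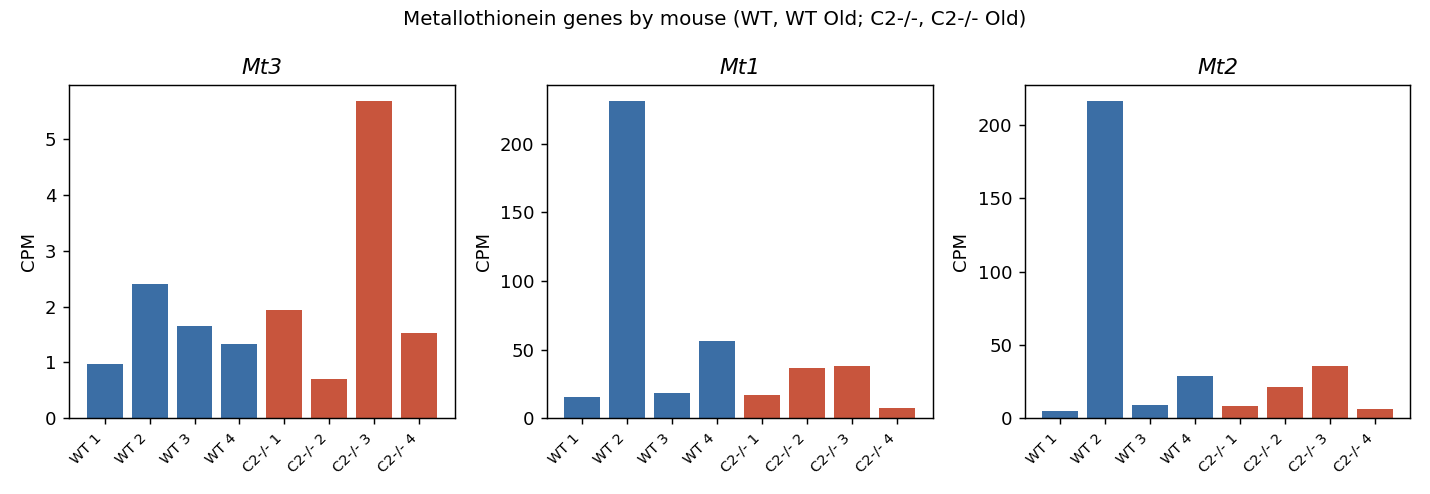
CPM of Mt3, Mt1 and Mt2 in each mouse as bars from 0, WT Old in blue and C2-/- Old in red. Mt3 peaks in C2-/- Old replicate 3 (5.68 CPM), and Mt1 (231.1 CPM) and Mt2 (216.2 CPM) peak in WT Old replicate 2.

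Sums of other marker genes were set beside these genes. The 7 immediate early genes, which respond to handling and activity, summed to 904.2 CPM in WT Old replicate 2, 1881 CPM in WT Old replicate 4 and 1269 CPM in C2-/- Old replicate 2, and to between 287.4 and 534.5 CPM in the other mice. The 8 leukocyte markers summed to 73.31 CPM in WT Old replicate 2, of which S100a8, a neutrophil gene, gave 12.8 CPM, and to between 23.95 and 64.1 CPM in the others. The 6 fibroblast markers summed to 331.4 to 446.0 CPM in WT Old, lowest in replicate 2, and to 492.3 to 685.5 CPM in C2-/- Old. The 8 Schwann cell markers summed to 60.29 to 118.3 CPM in WT Old and to 50.97 to 91.3 CPM in C2-/- Old, with 60.29 CPM in WT Old replicate 2. The 6 satellite cell markers, which are of interest because activated satellite cells also make Ncam1, summed to 53.47 CPM in that mouse, the highest of the 8, and to 33.63 to 50.42 CPM in the others. Most of that sum was Cdh15 (29.47 CPM) and Sdc4 (22.58 CPM), and that mouse was the highest for 1 of the 6 markers, Sdc4, while Pax7, the defining marker, was seventh of 8 there at 0.365 CPM. The 7 tendon markers were lowest there, at 58.47 CPM against 65.05 to 244.8 CPM, and the 6 slow fibre markers spanned 4.35 to 36.81 CPM over all mice, with 6.05 CPM there. By edgeR at an unadjusted p under 0.05, where 3.38% of all tested genes were higher and 1.91% lower in C2-/- Old, 3 of 6 tested fibroblast markers (among them Col1a1 and Col3a1) and 1 of 6 tendon markers were higher in C2-/- Old, and 2 of 6 slow fibre markers (Myl2 and Myh7) were lower. Of 7 tested leukocyte markers, 1 was higher and 1 lower, and 0 of 8 Schwann cell, 0 of 5 satellite cell and 0 of 7 immediate early genes passed. Without WT Old replicate 2, 2 of 8 Schwann cell markers were lower at that threshold, where 1.84% of all genes tested were. These were Mbp (log2 fold change −0.67 ± 0.25, SE) and S100b (−1.15 ± 0.48, SE). In that fit 6 of the 8 fitted values were below 0 and 2 above, and 0 were called after adjustment. The highest sum of the slow fibre markers, 36.81 CPM, was in WT Old replicate 4. Without the 3 mice with high immediate early genes, this mouse among them, the log2 fold change was −0.73 ± 0.46 (SE) for Myh7 and −0.76 ± 0.43 (SE) for Myl2. Neither then had an unadjusted p under 0.05 by edgeR. With only WT Old replicate 2 left out, the log2 fold change was −2.86 ± 0.80 (SE) for Myh7 and −1.715 ± 0.48 (SE) for Myl2. In that fit 3 of 6 slow fibre markers were lower at an unadjusted p under 0.05, where 1.84% of all genes tested were. After adjustment 0 of them were called. No listed marker was at 0 in all 8 mice. The part of these cells and of handling in the levels of the 7 genes was not tested.

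Leaving out the 3 mice with high immediate early genes, a choice made after their values were seen, gave Runx1 a log2 fold change of 0.89 ± 0.26 (SE; unadjusted p = 0.00843, adjusted p = 0.951 by edgeR) and Dach2 one of −0.53 ± 0.21 (SE; unadjusted p = 0.0368, adjusted p = 0.999 by edgeR). Only WT Old replicates 1 and 3 and C2-/- Old replicates 1, 3 and 4 remained in this fit.

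Some counts are uncertain where another gene shares the exons, since the sources used here do not state whether counting used the strand. On the opposite strand, Runx1 shared 106 exon bases with Gm26626, Ncam1 417 with Gm11149, Gadd45a 337 with E230016M11Rik and Hdac4 3536 with Gm26720. Exons of Hdac9, Dach2 and Mt3 were free of such overlap in the annotation (GENCODE vM21).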

How the data were processed

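Libraries of TA muscle from 8 mice (4 WT Old, 4 C2-/- Old) were grouped by the genotype in their labels. The study's methods describe reads aligned to the mouse genome and counted per gene. The authors deposited expected counts without normalisation. Between 5.5% and 6.53% of them per mouse were not whole, and all were rounded here. The authors also deposited TPM, used here for levels per length, and FPKM, not used here (8 columns). Fold changes, p-values and q-values of the authors' own comparison in the table were not used. Per the labels, the submitters' processing notes name HISAT, Bowtie2, DESeq2 and GRCm38.p6, and the methods name featureCounts and limma with voom. How these steps produced counts that are not whole is not given in the sources used here. The strand column of the table read plus for all 7 genes and was replaced by GENCODE vM21.

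Of 16687 rows, 16686 named a gene, and 24 gene symbols altered in the table were restored by gene ID. Genotypes were compared by the quasi-likelihood test of edgeR 4.0.16 (R 4.3.3) with TMM factors (0.929 to 1.035), edgeR's default filter and genotype only, with Benjamini-Hochberg adjustment over 12542 genes. It was the main test on the rounded counts, and the study's limma-voom was kept as an alternative. Correlations used log2 CPM with a prior count of 2. Scripts were tested on simulated counts. Python 3.11.15 with scipy 1.17.1 gave exact permutation tests. Results were recomputed with limma-voom (limma 3.58.1), DESeq2 1.42.0, RLE size factors, other filters, the replicate number as a block, leaving out each mouse and, added after seeing the data, leaving out the 3 mice with high immediate early genes.

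The 7 genes and the lists were chosen for their known biology, with earlier results of these data known. Named genes were the 7 genes, Mybpc2, up to 4 genes per list with an unadjusted p under 0.05, Myog, Chrna1, Chrng, Musk, Fbxo32, Trim63, Mt1, Mt2 and the 2 genes most like each of the 7, of which some results are not reported here.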

Additional observations from a re-analysis of the deposited data

Results flagged for a closer look

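Within each genotype, the highest and the lowest of 4 mice were set against the others by Dixon's test, for 19 genes and both genotypes (38 tests). Chance gives such a gap in about 1 in 20 groups. Over all tested genes it was found for 7.42% in WT Old and 5.82% in C2-/- Old, and here for 9 of 38, of which 7 lay in the same mouse. These 19 were the 7 genes and others named above, not the 19 other denervation-induced genes. Some, such as Cdkn1a, were named for their unadjusted p in these data, and that of Cdkn1a rested on this same mouse. The shares over all tested genes are thus no background for this count, and whether it is an excess was not tested.

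In WT Old replicate 2 the values far above the other wild-type mice were those of Runx1 (21.45 CPM), Ncam1 (38.23 CPM), Myog (16.67 CPM), Chrna1 (60.26 CPM), Trim63 (682.3 CPM), Cdkn1a (404.7 CPM) and Mt2 (216.2 CPM). In WT Old replicate 3, Myh8 stood at 4.257 CPM, above 1.605 to 1.918 CPM in the other WT Old mice. In C2-/- Old replicate 2, Trim63 stood at 130.6 CPM, above 104.1 to 107.9 CPM in the others of its genotype.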

How the results depend on the processing

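Over 15 alternative settings, 0 of the 7 genes were called after adjustment in any, with the smallest adjusted p 0.471 (Runx1 without WT Old replicate 2). Of 389 alternative values of 26 results, 341 kept their direction or size, 30 reversed and 18 moved. The fold change of a gene counted as kept when its direction and call were the same, whatever its size. Trim63, at −1.21 with all mice and −0.085 without WT Old replicate 2, was thus counted as kept. Leaving out 1 mouse at a time gave 0 to 1 of the 7 genes at an unadjusted p under 0.05, 3 to 7 of the other denervation-induced genes, 4 to 7 genes called among all tested, a median log2 fold change of −0.22 to 0.17 for the 7 genes and of −0.77 to 0.28 for the others. It gave log2 fold changes of −0.49 to 0.94 for Runx1, −0.62 to 0.016 for Ncam1, −0.40 to 0.68 for Gadd45a, −0.02 to 0.45 for Hdac4, −0.026 to 0.55 for Hdac9, −0.22 to 0.33 for Dach2 and −0.19 to 0.94 for Mt3. For Myog it gave −0.85 to 0.28, for Chrng −0.99 to 0.53, for Cdkn1a −2.35 to 0.01 and for Mt2 −2.40 to 0.33. Limma-voom gave a median of 0.25 for the 7 genes, 2 other denervation-induced genes at an unadjusted p under 0.05, and 0.25 for Runx1 and 0.12 for Gadd45a. DESeq2 called 39 of all genes against 4 by edgeR. Without the 3 mice with high immediate early genes, 2 of the 7 genes (Runx1 and Dach2) and 3 of the others had an unadjusted p under 0.05. The share of all tested genes at that unadjusted threshold is given only for the main fit and for that without WT Old replicate 2. Counts at that threshold in all other settings, the replicate block included, thus have no background here. After adjustment, 2 of all tested genes were called without the 3 mice with high immediate early genes, and the medians were 0.33 and 0.13. The log2 fold changes were then 0.89 for Runx1, 0.16 for Ncam1, 0.83 for Gadd45a, −0.14 for Hdac9, −0.53 for Dach2, 0.056 for Myog, 1.12 for Chrng, 0.077 for Fbxo32, 0.25 for Trim63, 0.035 for Cdkn1a, 0.29 for Mt1 and 1.27 for Mt2. The cause of these changes was not tested.

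The replicate numbers were not used to pair the mice in the main fit. Same-numbered deviations correlated at 0.267, 0.042, −0.051 and 0.021, and those of other combinations at −0.225 to 0.202. These values cannot show whether the mice were paired in housing or handling. The fit with the replicate number as a block gave 0 of the 7 genes and 3 of the others at an unadjusted p under 0.05, and log2 fold changes of 0.24 for Runx1 and 0.088 for Gadd45a.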
